A study of Mus musculus with 8 samples.

Results

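The genes described here encode the machinery of mitosis: the centromere and kinetochore, the spindle checkpoint, the mitotic kinases and cyclins, and the proteins that start anaphase. They are 59 of the 23361 gene symbols in the deposited table, chosen by name and function (kinesin motors were left out), and all 59 lay above the filter on low values, among 10467 genes tested. RNA was sequenced from Nrp-1+ iTreg (4 libraries) and from Nrp-1- iTreg (4 libraries), labelled as biological replicates 1 to 4 of each subset. iTreg are regulatory T cells induced in culture, here from wild-type Foxp3-RFP reporter mice, whose cells glow red when they express Foxp3, the transcription factor that defines Treg. In both subsets alike, naive CD4+ T cells (CD44low CD62Lhigh) had received anti-CD3/CD28 microbeads, TGF-β at 2 ng/ml and IL-2. For IL-2 the labels give 50 U/ml and the study's methods a mass in ng/ml, so the amounts cannot be compared directly. Viable CD4+ Foxp3-RFP+ cells were then divided by surface Nrp-1, so the subsets come from the same kind of culture and differ in the gate. The labels give 3 days of culture in one field and day 5 in another. Nothing says whether the replicates were separate mice or cultures, so p-values measure the spread between these libraries.

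Nrp1, the gene of the sorted protein, lay between 20.4 and 22.0 FPKM in the Nrp-1+ libraries and between 4.70 and 5.31 FPKM in the Nrp-1- libraries, as labelled. FPKM is the fragment number scaled by transcript length and by the mapped fragments of the library, so levels can be compared between genes. Sequencing depth, read from the steps between values of low genes, was expressed relative to the first library. It lay between 0.996 and 1.22 in the Nrp-1+ libraries and between 0.812 and 1.24 in the Nrp-1- libraries. The summed FPKM of short RNA genes ranged from 1.77% to 43.9% of a library, and that share did not follow the subset. T cell and Treg markers summed to between 2031 and 2170 FPKM in all libraries, but its 9 genes did not move as one. Foxp3, Il2ra, Ikzf2 and Cd28 were higher in Nrp-1+ iTreg, Cd3d, Cd3g and Ctla4 were lower, and Cd3e and Cd4 did not pass (limma), with ratios of group means from 0.880 (Cd3d) to 1.37 (Ikzf2). The B cell markers Ms4a1 and Pax5 were listed at 0 in every library. Of the B cell list, 4 of 5 markers stayed under 1 FPKM in all 8 libraries and the list summed to between 4.01 and 5.91 FPKM, nearly all from Cd79b. Of the myeloid list 5 of 6 markers did, of the NK list 3 of 4, and of the CD8 list 1 of 2 (Cd8a). The remaining myeloid marker, Itgam, was higher in Nrp-1+ iTreg (6.70 against 5.56 FPKM, adjusted p = 0.00136 by limma), and the remaining CD8 marker, Cd8b1, was lower (7.86 against 10.0 FPKM, adjusted p = 0.0119 by limma), both without overlap. Of the erythroid and platelet list, the haemoglobin gene Hba-a1 was at 6.10 ± 0.958 FPKM in Nrp-1+ libraries and at 2.52 ± 0.585 FPKM in Nrp-1- libraries (SD, n = 4 each). Hba-a1 was thus higher without overlap (ratio 2.43, adjusted p = 0.00051 by limma). Pf4 and Ppbp were listed at 0. The part of Itgam, Cd8b1 and Hba-a1 transcripts in the results was not tested.

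A kinetochore is the protein structure on each centromere that holds the chromosome to spindle microtubules. Its base contains CENP-A, a histone H3 variant, and the inner kinetochore complex (CCAN). Its outer layer contains the Mis12, Ndc80 and Ska complexes, of which Ndc80 and Ska bind microtubules. The spindle checkpoint (Bub and Mad proteins, Ttk and the RZZ complex) blocks the anaphase-promoting complex (APC/C) until every chromosome is attached, after which Cdc20 activates the APC/C, cyclin B and securin are destroyed, and separase cuts cohesin. In dividing lymphocytes most of these genes are transcribed late in the cell cycle and are nearly silent in resting cells, through promoters that often hold a CCAAT box, bound by NF-Y, and a cell cycle genes homology region (CHR), bound by the MuvB complexes.

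The promoters are shown first because they hold a feature by which the genes were not chosen. CHR (TTTGAA) and CCAAT were searched on both strands, where the motifs can share an end letter, in windows from 250 bases before to 50 bases after each annotated start in a RefSeq table of build GRCm38.p6. Of the 59 genes, 51 were found there. Both motifs stood in 25 of these 51 (49.0%), against 5.87% of 7701 tested genes with such a window and 7.97% of all 27025 genes in the table. A CHR within 60 bases of the start was found in 25 of 51, or 49.0%, against 4.35% of the tested genes, and at least 2 CCAAT boxes in 26, or 51.0%, against 17.6%. These shares describe letters in a window and do not show that a factor binds. The following lines give the 150 bases before the start, on the gene's own strand from 5′ to 3′, with CHR (TTTGAA or TTCAAA) and CCAAT (or ATTGG) in capitals. Among the 51 members found, Top2a, Ube2c, Bub3, Cdc20 and Prc1 are the 5 most abundant with a CHR in the 60 bases before a start. Cenpq and Cdc25b are shown because they had the smallest changes.
Top2a, chr11:99024190-99024339, minus strand: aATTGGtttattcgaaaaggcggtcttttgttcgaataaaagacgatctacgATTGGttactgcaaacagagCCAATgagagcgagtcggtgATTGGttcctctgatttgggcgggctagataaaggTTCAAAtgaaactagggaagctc
Ube2c, chr2:164769779-164769928, plus strand: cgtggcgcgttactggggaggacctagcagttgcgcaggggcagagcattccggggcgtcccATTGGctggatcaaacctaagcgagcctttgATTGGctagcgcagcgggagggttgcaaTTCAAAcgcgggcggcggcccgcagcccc
Bub3, chr7:131560220-131560369, plus strand: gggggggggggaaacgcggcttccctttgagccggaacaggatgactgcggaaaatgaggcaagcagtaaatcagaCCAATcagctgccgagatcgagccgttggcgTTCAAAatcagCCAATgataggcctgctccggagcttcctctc
Cdc20, chr4:118437344-118437493, minus strand: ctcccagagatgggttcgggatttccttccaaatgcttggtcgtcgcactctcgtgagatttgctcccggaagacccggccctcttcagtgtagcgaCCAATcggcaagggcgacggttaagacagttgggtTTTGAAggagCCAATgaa
Prc1, chr7:80294326-80294475, plus strand: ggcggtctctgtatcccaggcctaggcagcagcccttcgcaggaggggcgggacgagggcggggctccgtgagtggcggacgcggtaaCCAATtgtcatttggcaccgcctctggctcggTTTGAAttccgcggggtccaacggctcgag
Cenpq, chr17:40934575-40934724, minus strand: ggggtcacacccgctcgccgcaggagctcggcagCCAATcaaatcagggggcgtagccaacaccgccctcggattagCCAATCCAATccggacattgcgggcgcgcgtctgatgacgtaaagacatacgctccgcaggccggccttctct
Cdc25b, chr2:131186798-131186947, plus strand: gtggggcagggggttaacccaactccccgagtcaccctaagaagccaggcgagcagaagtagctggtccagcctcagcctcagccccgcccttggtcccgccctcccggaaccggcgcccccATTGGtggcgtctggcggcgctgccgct

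In the first 5 of these promoters a CHR lay between the start and a CCAAT box placed further upstream. In Cenpq and Cdc25b the window held CCAAT boxes and no CHR. Across the promoters, CHR matches gathered around the start, as the plot of motif positions shows.

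**Figure D1:**
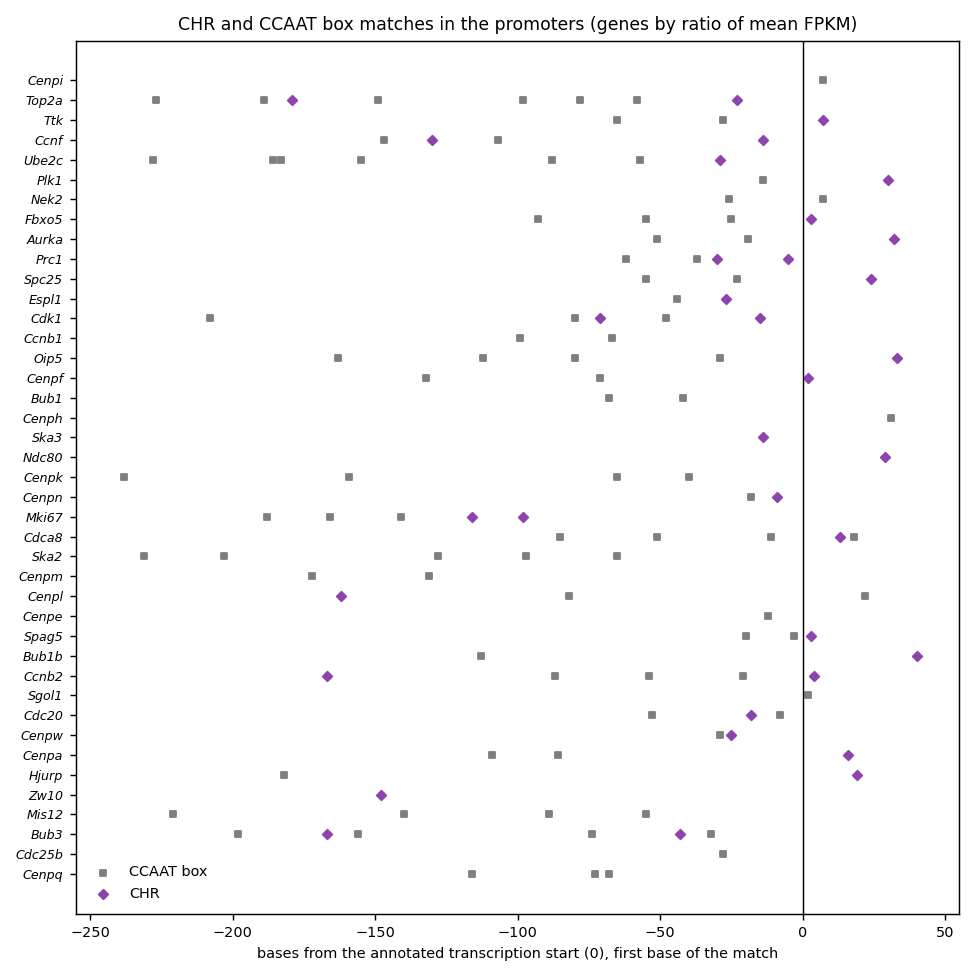
Position of each CHR (diamonds) and CCAAT box (squares) match, in bases from the annotated transcription start at 0, for every member with a match in the window; genes are ordered from the largest ratio of mean FPKM (top) to the smallest. Of 51 genes, 25 had a CHR within 60 bases of the start, and Cenpq and Cdc25b at the bottom had none in the window.

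Of the 59 mitotic genes, 58 were higher in Nrp-1+ iTreg and 0 were lower (limma on log2(FPKM + 1), Benjamini-Hochberg adjusted p under 0.05 over all genes tested), where 20.9% of all tested genes were higher and 20% lower. The adjusted p of the 58 ran from 1.35e-07 to 0.000163. In the same 58 genes every Nrp-1+ library lay above every Nrp-1- library, which was so for 20.2% of all tested genes, and in no member was the order the reverse, against 19.3%. The median log2 fold change of the 59 was 0.82, against -0.02 over all genes tested. Only Cenpq was not called. The changes were also alike in size. The ratio of group mean FPKM had a median of 1.82, and 47 of the 59 ratios fell between 1.7 and 2.1, a band that held 3.47% of all genes tested. Because this band lies around the members' own ratios, these shares are a description and not a test. At least 1.5-fold, 52 members were called higher, against 5.57% of all genes. No member reached a log2 fold change of 1, and the ratio reached 2 only in Cenpi. On the log2(FPKM + 1) scale the change of low genes is understated. In bulk RNA, a larger share of cells in mitosis or late in the cell cycle and more of these transcripts per cell cannot be told apart.

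**Figure D2:**
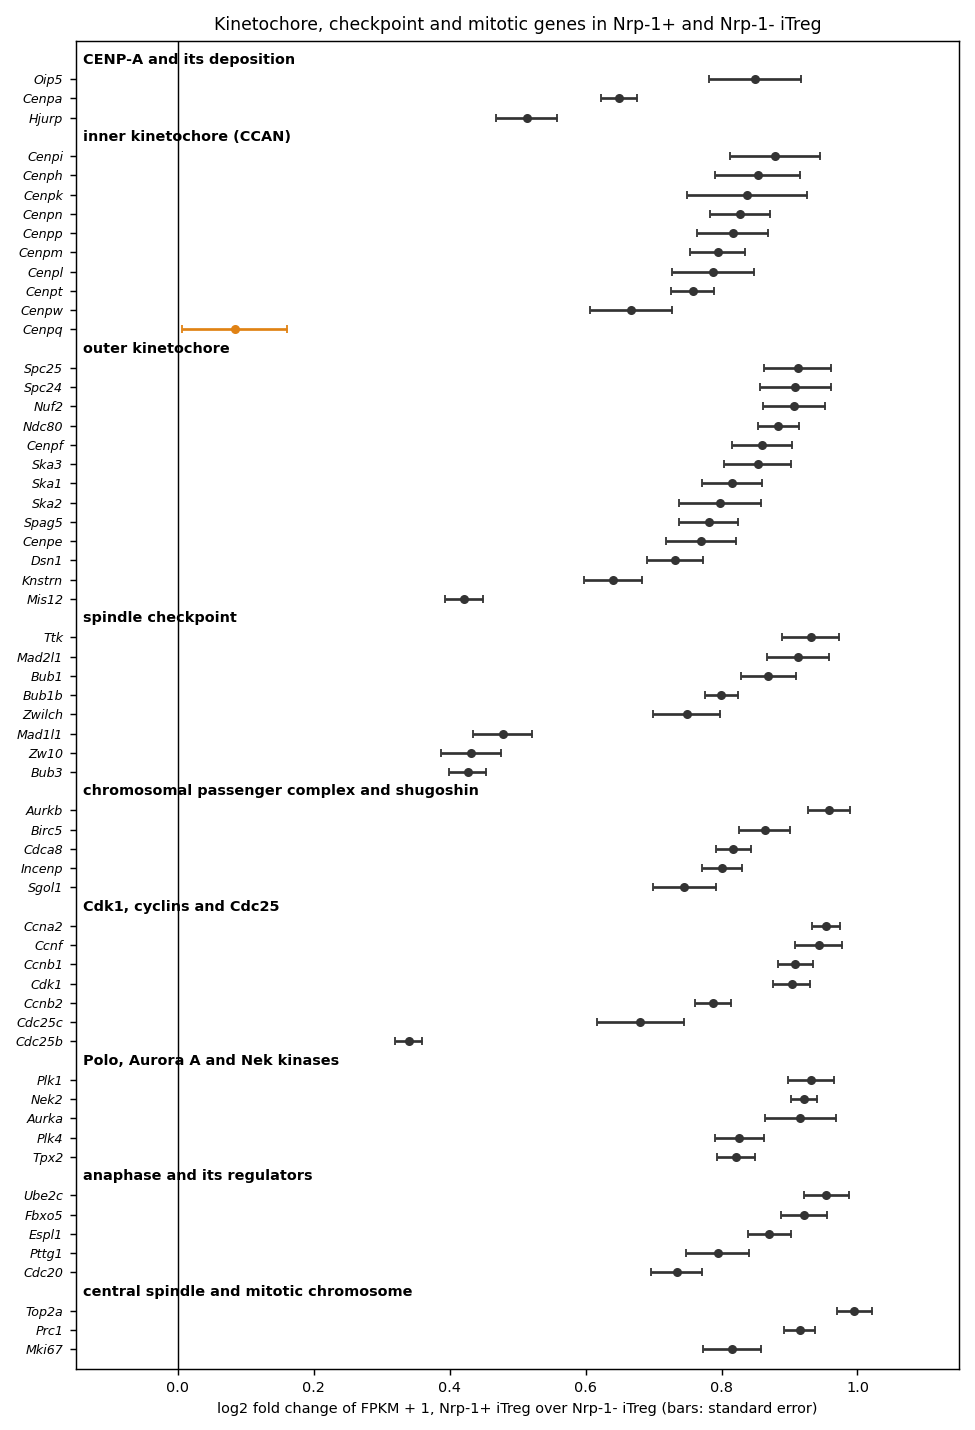
Log2 fold change of FPKM + 1 (Nrp-1+ iTreg over Nrp-1- iTreg, 4 libraries each) of the 59 genes by role, with the standard error as bars; black points passed an adjusted p of 0.05 and the orange point, Cenpq, did not. Most points lie between 0.7 and 1.0, with Hjurp, Mis12, Mad1l1, Zw10, Bub3 and Cdc25b between 0.34 and 0.52.

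The libraries of a subset lay close together. Among the Nrp-1+ libraries a member's coefficient of variation ran from 0.454% (Ube2c) to 10.1% (Cenph), with a median of 3.91%. Among the Nrp-1- libraries it ran from 0.766% (Cdc25b) to 12.1% (Cenpk), with a median of 3.79%. The 59 genes summed to 3861 ± 37.2 FPKM per Nrp-1+ library and to 2184 ± 17.1 FPKM per Nrp-1- library (SD, n = 4 each). Within Nrp-1+ iTreg, replicate 4 held the lowest value of the 4 libraries for 24 of the 59 genes and replicate 1 for 8. Within Nrp-1- iTreg these numbers ran from 9 to 17.

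**Figure D3:**
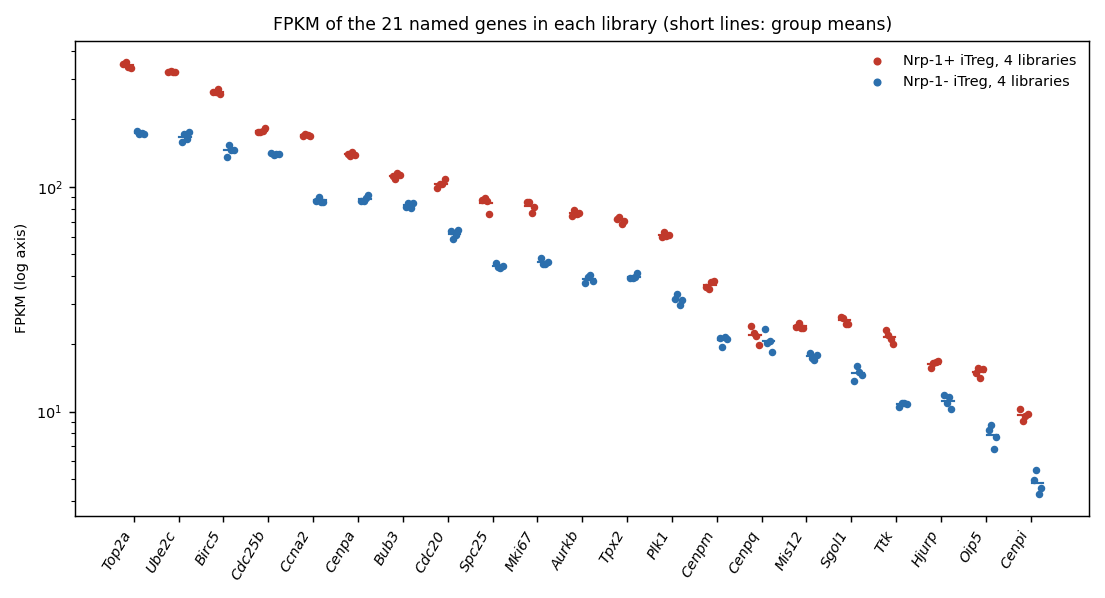
FPKM (log axis) of the 21 members named by rule, in each of the 4 Nrp-1+ iTreg (red) and 4 Nrp-1- iTreg (blue) libraries, with short lines at the group means; genes are ordered by mean level. The groups stand apart in every gene except Cenpq.

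At the base of the kinetochore, all 3 genes of CENP-A and its loading were higher in Nrp-1+ iTreg. Cenpa, the centromeric histone itself, was at 139.7, 137.2, 142.4 and 138.3 FPKM in Nrp-1+ replicates 1 to 4 and at 86.6, 86.2, 89.1 and 92.2 FPKM in the Nrp-1- replicates. The groups did not overlap, and the ratio of 1.57 (adjusted p = 6.49e-07 by limma, log2 fold change 0.65 ± 0.03 SE) was below that of most members. Hjurp, the chaperone that deposits CENP-A, rose by less, from 11.2 ± 0.693 to 16.4 ± 0.495 FPKM (SD, n = 4), a ratio of 1.46. Oip5, a subunit of the Mis18 complex that directs the chaperone to centromeres, was at 14.8, 15.6, 14.1 and 15.5 FPKM in Nrp-1+ iTreg against 8.27, 8.75, 6.84 and 7.75 FPKM, a ratio of 1.90.

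Of the 10 CCAN genes, 9 were higher, with ratios of group means between 1.67 (Cenpw) and 2.01 (Cenpi). Cenpi had the lowest level of all members in Nrp-1- iTreg, with 4.94, 5.48, 4.29 and 4.58 FPKM, against 10.3, 9.11, 9.53 and 9.81 FPKM in Nrp-1+ iTreg. Cenpm, the most abundant of the group, rose from 20.7 ± 0.960 to 36.7 ± 1.44 FPKM (SD, n = 4). Cenpq, which encodes a subunit of the CENP-O branch of the CCAN, was the exception. It was at 24.1, 22.3, 21.6 and 19.8 FPKM in Nrp-1+ replicates 1 to 4 and at 23.3, 20.3, 20.7 and 18.4 FPKM in Nrp-1- replicates 1 to 4. The groups overlapped nearly throughout, and the log2 fold change was 0.08 ± 0.08 (SE), with an adjusted p of 0.416 by limma. Leaving out 1 library moved the change to between 0.03 (without Nrp-1- replicate 4) and 0.14 (without Nrp-1- replicate 1). Without the 3 libraries with over 20% of FPKM on short RNA genes (Nrp-1+ replicates 2 and 4 and Nrp-1- replicate 1) it was 0.20, which still did not pass by limma. The groups then did not overlap, which so few libraries reach more readily than 4 against 4. The other genes of this branch, looked up after the value of Cenpq was seen, were higher, with ratios of 1.81 for Cenpp, 1.59 for Cenpu (listed as Mlf1ip), 1.32 for Cenpo and 1.29 for Cenpr (listed as Itgb3bp).

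All 13 outer kinetochore genes were higher. The 4 subunits of the Ndc80 complex, the main microtubule-binding arm, moved together, with ratios of 1.87 for Ndc80, 1.91 for Nuf2, 1.91 for Spc24 and 1.90 for Spc25. Spc25, the most abundant, was at 87.1, 89.2, 86.3 and 75.7 FPKM in Nrp-1+ iTreg and 45.6, 44.0, 43.6 and 44.4 FPKM in Nrp-1- iTreg. The lowest Nrp-1+ value of Spc25, in replicate 4, still lay well above the highest Nrp-1- value. Ska1, Ska2 and Ska3, which stabilise the attachment, had ratios from 1.77 to 1.88. Mis12 rose least, with 23.9, 24.7, 23.6 and 23.5 FPKM against 18.2, 17.3, 17.0 and 17.9 FPKM, a ratio of 1.36 (log2 fold change 0.42, adjusted p = 9.81e-06 by limma). Dsn1, from the same complex, had a ratio of 1.72.

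All 8 spindle checkpoint genes were higher, in a larger and a smaller range. Ttk, the kinase that recruits the other checkpoint proteins, was at 23.1, 21.8, 21.1 and 19.9 FPKM in Nrp-1+ iTreg and between 10.5 and 10.9 FPKM in Nrp-1- iTreg, a ratio of 1.99. Mad2l1 (1.90), Bub1 (1.88), Zwilch (1.78) and Bub1b (1.76) were similar. Bub3, which carries Bub1 and Bub1b to the kinetochore, was the most abundant of the group, at 111.5, 108.3, 114.5 and 112.8 FPKM against 81.5, 84.8, 80.5 and 84.9 FPKM, a ratio of 1.35. Mad1l1, the kinetochore anchor of Mad2l1, had a ratio of 1.43, and Zw10, the RZZ subunit that also acts in membrane traffic, 1.37. In none of these 3 genes did the groups overlap.

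The 5 genes of the chromosomal passenger complex and shugoshin, which correct and protect centromere attachments, were all higher with no overlap. Aurkb, the kinase of the complex, rose from 38.8 ± 1.39 to 76.3 ± 1.87 FPKM (SD, n = 4), a ratio of 1.97. Birc5 (survivin), its most abundant subunit, was at 264.6, 264.7, 271.4 and 259.4 FPKM in Nrp-1+ iTreg and 135.4, 154.0, 146.2 and 145.9 FPKM in Nrp-1- iTreg. Sgol1, which protects centromeric cohesin, had the smallest ratio of this group, 1.72.

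Among Cdk1, the listed cyclins and the Cdc25 phosphatases that activate Cdk1, all 7 genes were higher. Ccna2 (cyclin A2) was at 167.6, 171.8, 169.2 and 168.3 FPKM in Nrp-1+ iTreg and 86.5, 89.7, 85.9 and 85.5 FPKM in Nrp-1- iTreg, a ratio of 1.95. Ccnf (1.96), Cdk1 (1.90), Ccnb1 (1.90) and Ccnb2 (1.73) were near it. GENCODE M21 lists pseudogene copies of Ccnb1 and Ccnb2, which could have taken some of their reads, so those values are less certain. Cdc25b, the most abundant gene of the group, had the smallest change of the 58 members called, at 174.9, 175.3, 176.8 and 182.3 FPKM against 141.2, 138.6, 139.6 and 140.2 FPKM (ratio 1.27, log2 fold change 0.34, adjusted p = 4.75e-06 by limma). Its paralogue Cdc25c, present at 12.4 ± 0.748 FPKM in Nrp-1+ iTreg, had a ratio of 1.68.

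The 5 genes of Polo-like kinases, Nek2, Aurora A and its activator Tpx2 were all higher, with ratios from 1.79 (Tpx2) to 1.93 (Plk1). Plk1, which acts from mitotic entry to cytokinesis, was at 59.7, 62.6, 60.5 and 61.1 FPKM in Nrp-1+ iTreg and 31.6, 33.3, 29.8 and 31.4 FPKM in Nrp-1- iTreg. Nek2, a centrosome kinase, had the smallest p of all members, with 46.5 ± 0.612 FPKM against 24.1 ± 0.194 FPKM (SD, n = 4, adjusted p = 1.35e-07 by limma).

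The 5 anaphase genes were all higher as well. Ube2c, the ubiquitin-conjugating enzyme of the APC/C, was at 325.2, 326.2, 322.8 and 324.0 FPKM in Nrp-1+ iTreg and 158.2, 171.9, 163.3 and 175.3 FPKM in Nrp-1- iTreg, a ratio of 1.94. In GENCODE M21, 22.8% of its exon bases lie opposite exons of Tnnc2, which stayed between 0.0804 and 0.613 FPKM in the 8 libraries. Cdc20, the APC/C activator that the checkpoint holds in check, rose least of the group, from 61.7 ± 2.56 to 103.3 ± 3.82 FPKM (SD, n = 4), a ratio of 1.67. The securin gene Pttg1 had a ratio of 1.75, the separase gene Espl1 1.90, and Fbxo5, an APC/C inhibitor, 1.92.

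Of the genes of the central spindle and the mitotic chromosome, all 3 were higher. Top2a, the topoisomerase that untangles sister chromatids, was the most abundant of all 59 genes in both subsets. It was at 350.6, 357.5, 341.1 and 335.7 FPKM in Nrp-1+ iTreg and 177.5, 170.8, 173.2 and 171.1 FPKM in Nrp-1- iTreg, the largest log2 fold change of the members (0.995 ± 0.03 SE, adjusted p = 1.84e-07 by limma). Mki67, the proliferation marker that coats mitotic chromosomes, had a ratio of 1.78, and Prc1, which bundles the central spindle, 1.91.

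Some of these proteins act as partners, so the ratio of 2 partner genes was compared within libraries, where scaling between libraries cancels. Of 20 pairs, 9 had ratios that did not overlap between the subsets (exact two-sided permutation p = 0.0286 each, the smallest possible here, which became 0.0635 when Benjamini-Hochberg adjusted for the 20 pairs). None therefore passed the adjustment, and the other 11 pairs overlapped. Ratios without overlap were also found in 40.5% of all pairs of tested genes and in 31.9% of the 1711 pairs that the members can form, so the count of 9 was near the background and is not particular to these partners. The largest shift was in Bub1 over Bub3, which was between 0.247 and 0.289 in Nrp-1+ iTreg and between 0.190 and 0.204 in Nrp-1- iTreg. Mad2l1 over Mad1l1 was between 4.99 and 5.78 against 3.83 and 4.45, and Dsn1 over Mis12 between 0.737 and 0.809 against 0.589 and 0.636. Bub1b over Bub3, Zwilch over Zw10 and Cdc25c over Cdc25b shifted the same way, by 0.38 to 0.41 on the log2 scale, with Bub1b over Bub3 at 0.39. Smaller shifts without overlap were those of Ube2c over Cdc20 (0.21), Aurkb over Incenp (0.16) and Ccnb1 over Ccnb2 (0.13). By contrast Ccnb1 over Cdk1 differed by -0.0018 (exact permutation p = 0.943), with overlapping libraries. Spc25 over Spc24 differed by -0.0037 (exact permutation p = 0.971).

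**Figure D4:**
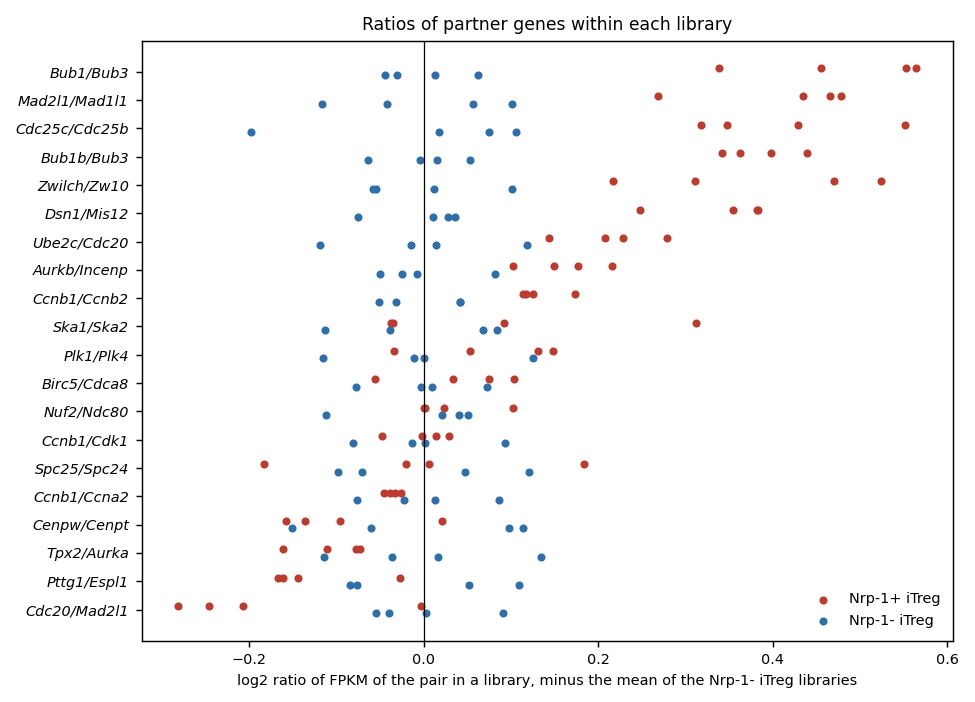
Log2 ratio of FPKM of 20 partner pairs in each Nrp-1+ iTreg (red) and Nrp-1- iTreg (blue) library, set to 0 at the mean of the Nrp-1- libraries. In the top 9 pairs the red and blue points do not overlap, and in the lower 11 they do.

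Of 78 other genes of mitosis, in 5 lists by function, 58 were higher and 4 lower, with a median log2 fold change of 0.49. Of all tested genes, 20.9% were higher and 20% lower. The lists were chosen with earlier results of these data known, so their counts are no independent test. Of 19 other kinetochore and checkpoint genes 17 were higher and 0 lower, led by Apitd1 (Cenp-S, ratio 2.11) and Kntc1 (the third RZZ subunit, 2.02). Mad2l1bp and Tpr did not pass. Of 17 APC/C subunits and co-factors, 9 were higher, 2 lower and 6 neither, with a median log2 fold change of 0.11. The share of lower genes in this list, as in that of the entry and exit regulators, was below the 20% of all tested genes, so the lower genes named here are values of single genes and not results about the lists. The largest increases there were those of Fzr1 (1.59), the activator used after anaphase, and Ube2s (1.57), which extends ubiquitin chains. The core subunits Anapc4, Anapc7, Anapc10, Anapc13, Anapc16 and Cdc16 did not pass. Cdc26, a small subunit, was at 50.0 ± 2.05 FPKM against 54.9 ± 2.28 FPKM (adjusted p = 0.0260), and the ubiquitin-conjugating enzyme Ube2d1 at 23.0 ± 0.811 FPKM against 25.7 ± 1.45 FPKM (adjusted p = 0.0222, both by limma, with overlapping groups for Ube2d1). Leaving out Nrp-1- replicate 2 or Nrp-1- replicate 4 brought the number of lower APC/C genes to 0. Of 14 regulators of mitotic entry and exit, 9 were higher, among them Mastl (2.02), a kinase that restrains the PP2A phosphatase, the Cdk1-inhibiting kinases Wee1 (1.90) and Pkmyt1 (1.88), and Cks1b (1.81), a small Cdk-binding protein. The PP2A regulatory subunits Ppp2r5a (ratio 0.910) and Ppp2r2a (0.914) were lower, and their groups stood apart. Ppp2r2a did not pass when Nrp-1+ replicate 3 or 4 or Nrp-1- replicate 2 or 3 was left out (adjusted p by limma up to 0.0605), which left 1 lower gene in this list.

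**Figure D5:**
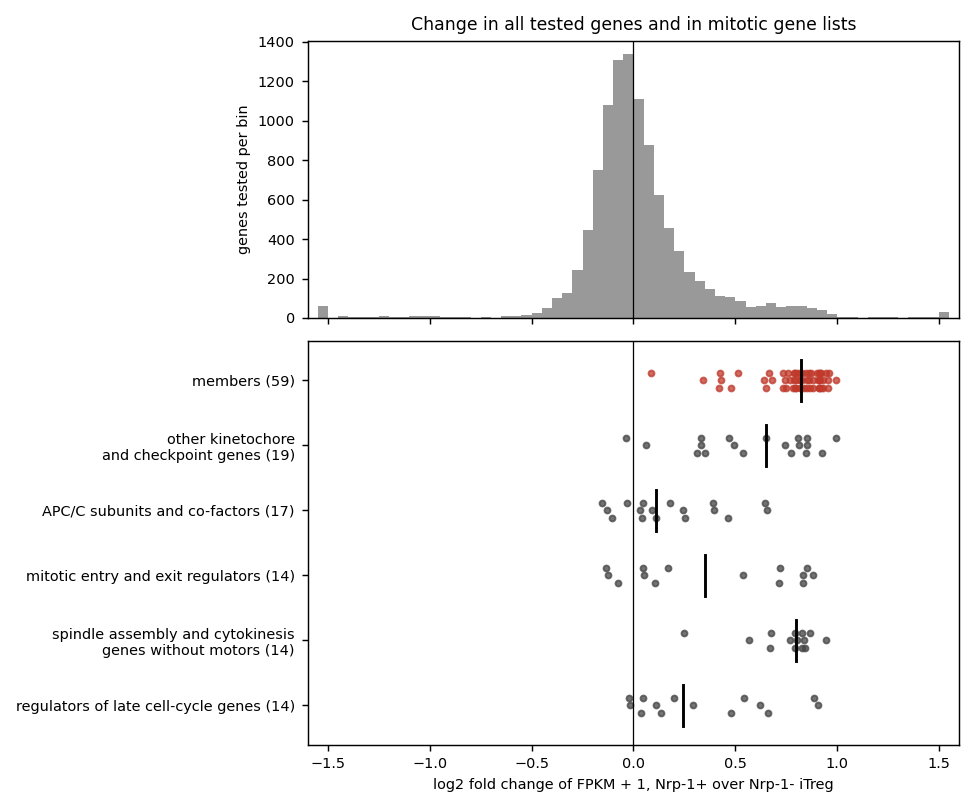
Log2 fold change of FPKM + 1 (Nrp-1+ over Nrp-1- iTreg) of all 10467 genes tested, as a histogram whose outermost bins hold all genes beyond them, and of single genes in the 59 members and 5 lists of other mitotic genes, with black bars at the medians. The members centre on 0.82 and the APC/C list on 0.11.

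Across the members, the promoter feature and the size of the change were set side by side. A CHR within 60 bases of the start was present in 23 of 44 members with a ratio of at least 1.5 (52.3%) and in 2 of 7 members below it (28.6%), namely Hjurp and Bub3. It was present in 16.6% of 385 other genes called higher at least 1.5-fold. Among the other mitotic lists it was present in 8 of 12 spindle assembly and cytokinesis genes (66.7%), in 2 of 11 other kinetochore and checkpoint genes (18.2%), in 1 of 10 entry and exit regulators, in 1 of 11 regulators of late cell-cycle genes and in 0 of 16 APC/C genes. These shares did not follow the lists' changes throughout, since 17 of the 19 other kinetochore and checkpoint genes were higher. Several strongly changed members, such as Ccnb1, Bub1, Mad2l1 and Birc5, had no TTTGAA in the window, so the letters did not mark all of them.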

How the data were processed

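Libraries were grouped by the sample labels. Reads had been handled by the authors in CLC Genomics Workbench, and the deposited FPKM came from Cufflinks, with a single entry for each gene symbol in each library. The labels name build GRCm38 (mm10), and the annotation and any use of strand in counting are not given in the sources used here. The paper and the labels name different library kits. The values were not rescaled. The 10467 genes whose FPKM averaged 1 or more entered limma 3.58.1 (R 4.3.3, moderated statistics with a mean trend) as log2(FPKM + 1), and p-values were adjusted over all of them (Benjamini-Hochberg). The fit was tested on simulated data. No count model was used, since FPKM is not a count.

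Relative depth was read from genes under 0.3 FPKM, where ratios between libraries were whole-number ratios times a fixed factor within 0.5% for 54.3% to 58.9% of genes, so fragment numbers were not recovered. Partner ratios, motifs and plots used Python 3.11.15, scipy 1.17.1, pandas 2.3.3 and matplotlib 3.10.9.

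The members and lists were chosen with earlier results of these data known. Named were, per role, the members with the largest and smallest change and the highest level, every member not called higher, and, per list, up to 2 called increases and 2 called decreases; others were chosen after their values were seen. The fit had no replicate block. nTreg libraries were not analysed here. A marker of the erythroid and platelet list is not reported here.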

Additional observations from a re-analysis of the deposited data

Results flagged for a closer look

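Among the 118 groups of 4 libraries formed by the 59 genes and both subsets, 7 held a library whose gap to its nearest neighbour took up nearly all of the group's range (Dixon's criterion at 95%), where chance gives about 5.9. In Nrp-1- iTreg these were Cenpm in replicate 2 (19.3 FPKM, the others up to 21.4), Nuf2 in replicate 3 (23.1 FPKM, the others 25.9 to 26.1), Cenpe in replicate 3 (11.8 FPKM, the others 12.6 to 12.7), Cenpf in replicate 1 (11.2 FPKM, the others 10.2 to 10.3) and Cdk1 in replicate 2 (28.0 FPKM, the others 26.5 to 26.7). In Nrp-1+ iTreg they were Cenpt in replicate 3 (13.5 FPKM, the others 14.4) and Zwilch in replicate 4 (11.1 FPKM, the others 12.2 to 12.4). All 7 values stayed on their own side of the other subset.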

How the results depend on the processing

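Under all 19 alternative fits, 58 of the 59 genes were higher and 0 lower, and the named members kept their call in all 399 refits. The exact Mann-Whitney test, at an unadjusted p under 0.05, gave the same counts. At 4 against 4 it passes only genes without overlap, so it repeats that count. By it, 2116 of all genes tested were higher and 2023 lower. The median log2 fold change of the members ranged from 0.80 (quantile normalization) to 0.87 (pseudocount 0.1). Cenpq ranged from 0.03 to 0.20, with adjusted p by limma from 0.0639 (replicate block) to 0.757. Calls outside the members moved: Ube2d1, Cdc26 and Ppp2r2a each lost theirs under some alternative, and higher genes numbered 8 to 10 in the APC/C list, 8 to 10 among entry and exit regulators, 7 to 10 among regulators of late genes (7 with quantile normalization and with the replicate block) and 16 to 17 among other kinetochore genes. Correlations of same-numbered libraries' deviations from the group means were -0.54 to 0.01 over all genes tested, -0.11 to -0.04 without short RNA genes and -0.006 to 0.29 over the members, so the numbers were not taken as pairs, although Cenpq was higher in Nrp-1+ iTreg in 4 of 4 same-numbered comparisons. With the replicate number as a replicate block, 1931 genes were higher and 1675 lower, and 1 APC/C gene was lower, as Ube2d1 no longer passed (adjusted p = 0.0786). With each library left out in turn, lower APC/C genes numbered from 0 to 3, lower entry and exit regulators from 1 to 2, and lower genes in all from 1770 to 1912. Without the 3 libraries with over 20% of FPKM on short RNA genes, 1280 genes were lower. All 59 members were then without overlap and 1 entry and exit regulator was lower. This alternative, chosen after seeing the data, left out Nrp-1+ replicates 2 and 4 and Nrp-1- replicate 1. Groups this small separate more readily than 4 against 4, and the share of all genes without overlap under it is not given here. The number of partner pairs without overlap ranged from 9 to 11, and no pair passed the adjustment with FPKM + 1 or in the paired sign-flip test, whose smallest p is 0.125. FPKM gives no counting error, so the precision of low members such as Cenpi rests on 4 libraries a subset.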

Other observations

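The other mitotic lists add structural and regulatory genes. Of 14 spindle assembly and cytokinesis genes without motors, all 14 were higher in Nrp-1+ iTreg by limma, with a median log2 fold change of 0.80. Nusap1, which binds spindle microtubules near chromosomes, rose from 58.5 ± 1.01 to 113.9 ± 6.02 FPKM (SD, n = 4), and Tacc3, a spindle protein phosphorylated by Aurora A, from 32.9 ± 0.520 to 60.7 ± 1.88 FPKM. Haus8, a subunit of the augmin complex, had the smallest log2 fold change of this list, 0.25.

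Of 14 regulators of late cell-cycle genes, 9 were higher and 0 lower. Mybl2 (ratio 2.00) and Foxm1 (1.88), the transcription factors that join MuvB to activate such promoters, were among them. Lin37 and Lin52, subunits of MuvB, E2f4 and Rbl2 (p130), which join it in the repressive DREAM complex of resting cells, and Nfyc, a subunit of NF-Y, did not pass, with log2 fold changes of -0.02 for Lin37, 0.20 for Lin52, -0.02 for E2f4, 0.04 for Rbl2 and 0.05 for Nfyc. The other listed MuvB subunits were higher by limma without overlap, with log2 fold changes of 0.48 for Lin9, 0.54 for Lin54 and 0.29 for Rbbp4. So were the other listed NF-Y subunits, by less, with 0.14 for Nfya and 0.11 for Nfyb. Tfdp1 was also higher without overlap, with a log2 fold change of 0.66. Rbl1 (p107) rose from 21.5 to 33.6 FPKM.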
